A study of Homo sapiens with 24 samples.

Results

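The genes described here are the 9 enzymes that take tryptophan down the kynurenine route and the enzyme that loads tryptophan onto its transfer RNA. They were chosen by symbol, by a rule that uses no measured value, though earlier results of these data were known, and all 10 (IDO1, IDO2, TDO2, AFMID, KMO, KYNU, HAAO, QPRT, KYAT1 and WARS1) have a row among the 39321 genes of the count table. With 12 libraries per line, 8 of the 10 passed the filter on low counts in the libraries labelled A498 and 9 of the 10 in those labelled 786-O. HAAO stayed under the filter in both lines and IDO2 in the libraries labelled A498.

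A498 and 786-O are human kidney tumor lines of the clear cell type (ccRCC). The study asked how interferon gamma (IFNγ) and the checkpoint ligand PD-L1, encoded by CD274, affect such cells, and sequenced polyadenylated RNA from 24 libraries, 3 in each of 4 groups per line. Every group received a pool of siRNAs at 20 nM, either non-targeting (Cnsi) or against PD-L1 (PD-L1si), so no group was left untransfected. After 24 hours, 1 group of each siRNA and line received IFNγ at 50 ng/mL for another 24 hours. A group is called by its siRNA, with IFNγ added to the name where the cytokine was given. GEO's genotype field calls the silenced cells a PD-L1 knockout, while the protocol describes transient silencing of a bulk culture. Nothing in the labels says whether the 3 libraries of a group came from separate cultures, so p-values measure the spread between these libraries only.

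Tryptophan can be built into protein or broken down. IDO1, IDO2 and TDO2 open the tryptophan ring in the first and rate-limiting step, AFMID frees kynurenine, and KMO, KYNU, HAAO and QPRT carry it on toward NAD+, while KYAT1 turns it aside into kynurenic acid. IDO1 and WARS1, the cytosolic tryptophanyl-tRNA synthetase, are textbook IFNγ-induced genes, and loss of tryptophan and gain of kynurenine through IDO1 are known to restrain T cells.

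IFNγ acts on promoters that hold GAS elements or ISRE elements, the latter bound by IRF factors. IDO1 and IDO2 had no RefSeq window here, so they were not searched. RefSeq windows from 250 bases before to 50 bases after a transcript start (GRCh38.p14) matched the other 8 of the 10 genes, in 12 windows. These were searched on both strands for the letters TTCNNNGAA (GAS) and for GAAA, any 2 bases and GAAA again (the ISRE core), which 7.66% and 3.57% of all 35116 windows hold. The stretches below are shown because WARS1 and KYNU are members that rose with IFNγ and hold such letters, which stand in capitals and read 5′ to 3′ on the strand of the gene, with positions counted from 1 at the transcript start and negative before it.
WARS1, ISRE letters from position -55, chr14:100375383-100375412, minus strand: tttcagaaggGAAACTGAAAgaaagagggg
WARS1, GAS letters from position -142, chr14:100375471-100375499, minus strand: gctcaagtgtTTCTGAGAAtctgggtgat
KYNU, GAS letters from position -34, chr2:142877620-142877648, plus strand: gtctgagcagTTCTTTGAAtttctcaccc
KYNU, GAS letters from position 6, chr2:142877659-142877687, plus strand: cctgtacattTTCAAGGAAttcttgagag
The WARS1 letters lie in the window of its inner start, and the window of its outer start (chr14:100376278-100376577) holds neither. KYAT1 has ISRE letters in 1 of its 3 windows and GAS letters in another. The windows of TDO2, AFMID, KMO, HAAO and QPRT hold neither motif. These matches describe the letters and were not tested as binding sites.

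Some facts on the libraries bear on every result. Counts summed to between 19256316 and 27907526 per library labelled A498 and between 26807875 and 30350461 per library labelled 786-O. In a check of genes known to separate the lines, 24 of 24 libraries did not match their labelled line, so the lines are called here only by their labels. Comparisons within a line do not depend on the name, while an exchange of the labels would turn the sign of each difference between lines. The lines were also run on different instruments, so line and instrument cannot be told apart. Of the genes with over 1000 counts in the libraries labelled A498, 1475 stand at 0 in every library labelled 786-O (35 the other way), none of them a member. Of these 1475, 98.7% carry another version of the gene ID than GENCODE 44, against 29.0% of the genes with over 1000 counts in both lines, so a row at 0 throughout a line is taken as not measured there. Of the 9 renal markers 9 and 8 passed the filter, and summed leukocyte markers reached at most 0.669 and 1.93 CPM (counts scaled to the TMM-adjusted library size) in the lines labelled A498 and 786-O. In the same order, summed fibroblast markers reached at most 12.2 and 0.0358 CPM and endothelial markers at most 0.0399 and 1.21 CPM. CD274, the siRNA target, stood at 191, 199 and 191 CPM in Cnsi IFNγ and at 26.9, 28.5 and 27.7 CPM in PD-L1si IFNγ in the line labelled A498. In the line labelled 786-O it stood at 55.7, 59.6 and 65.8 against 32.7, 30.8 and 30.6 CPM, so the target was lowered less there, with log2 changes of -0.94 and -2.81.

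Before IFNγ, levels were set per kilobase (kb) of exon, which allows genes to be compared. QPRT, KMO and WARS1 led in this order in all 4 groups without IFNγ. In Cnsi cells labelled A498 these levels were 55.3 ± 2.94, 38.9 ± 0.771 and 19.6 ± 0.579 CPM per kb (SD, n = 3), and their libraries did not overlap. In Cnsi cells labelled 786-O they were 197 ± 4.24, 13.3 ± 0.378 and 8.27 ± 0.339 CPM per kb, again without overlap. AFMID, KYNU and TDO2 came next, between 0.365 and 4.62 CPM per kb in the groups without IFNγ.

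With IFNγ the order was led by WARS1, IDO1 and QPRT in all 4 treated groups. In Cnsi IFNγ cells labelled A498, WARS1 reached 644 ± 18.4 and IDO1 169 ± 3.78 CPM per kb. In those labelled 786-O, WARS1 reached 351 ± 14.0 and IDO1 327 ± 16.6 CPM per kb, and the libraries of these 2 genes overlapped. KYNU and KMO also overlapped there, at 8.63 ± 0.743 and 7.71 ± 0.633 CPM per kb. The KYNU level per kb rests on merged exons of 17442 bases, which include exons of all its annotated transcripts.

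**Figure D1:**
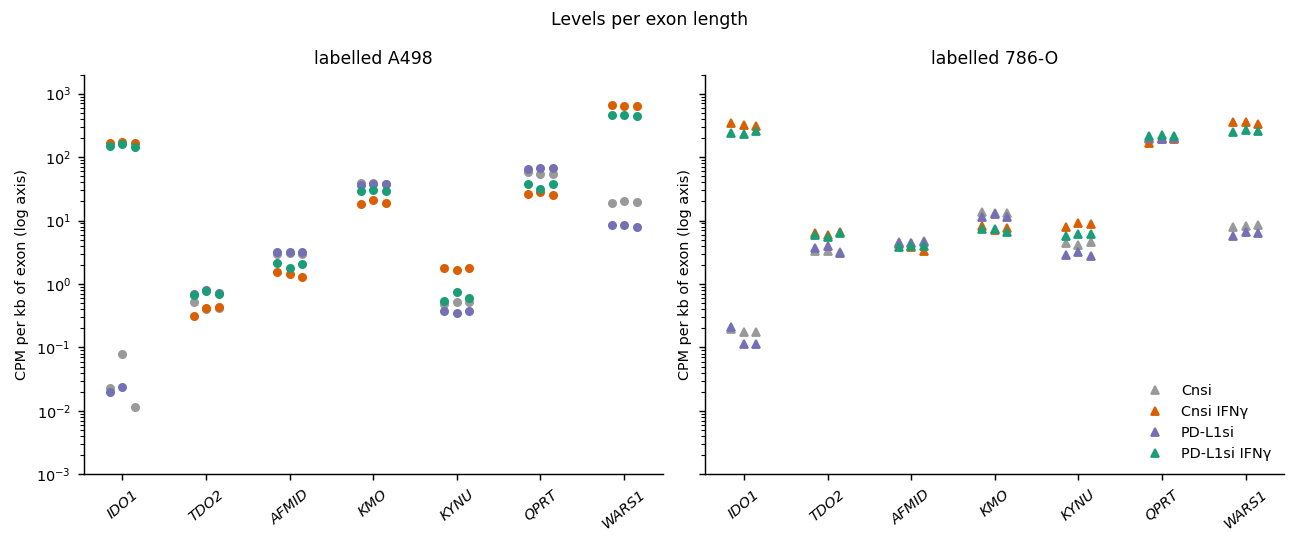
CPM per kb of exon (log axis) for the 7 members with the highest counts, in the order of the pathway, with 1 point per library and colors for the 4 groups of each labelled line; libraries with no count are not drawn. IDO1 and WARS1 stand far apart with and without IFNγ, while QPRT in the line labelled 786-O has group means between 184 and 219 CPM per kb.

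IDO1 (chr8:39902275-39928790, plus strand), the enzyme best known for tryptophan loss in tumors, rose with IFNγ from near 0 in both lines. Among libraries labelled A498 it had 2, 7 and 1 counts in Cnsi and 14115, 15541 and 11980 counts in Cnsi IFNγ. With PD-L1si it had 2, 2 and 0 counts without and 11759, 10754 and 10542 counts with IFNγ. In all 12 libraries, then, the gene had either at most 7 or at least 10542 counts. From the summed counts, the ratio with IFNγ was 4452 in Cnsi (95% interval 2421 to 9285) and 10604 in PD-L1si (4141 to 38920), the latter over a base of 4 counts, and these intervals cover counting error only.

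In cells labelled 786-O, IDO1 had 21, 17 and 18 counts in Cnsi and 33549, 30688 and 27581 in Cnsi IFNγ. With PD-L1si the counts were 21, 12 and 12 without and 22060, 23763 and 24678 with IFNγ. The ratio of summed counts was 1805 (1390 to 2389) in Cnsi and 1700 (1270 to 2331) in PD-L1si. On the log2 scale of the fit, IFNγ raised IDO1 by 12.06 in the line labelled A498 and by 10.81 in the line labelled 786-O, with adjusted p of 1.27e-39 and 1.54e-30 by the quasi-likelihood test of edgeR, adjusted after Benjamini and Hochberg, which is the test used for every adjusted p given here. The fitted value in the line labelled A498 moved between 11.65 and 13.15 when single libraries were left out, as its base holds 10 counts.

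The other ring-opening enzymes behaved differently. IDO2 (chr8:39934614-40016392, plus strand), a close relative of IDO1 that lies next to it, had 7 counts over all 12 libraries labelled A498 and 29 over those labelled 786-O. All 7 of the former fell in IFNγ libraries. For the libraries labelled 786-O it had 3, 1 and 0 counts in Cnsi and 10, 2 and 3 in Cnsi IFNγ, and the difference of 1.94 (log2, SE 0.85) did not pass the test (adjusted p = 0.0735 by edgeR's quasi-likelihood test). It passed without Cnsi replicate 1 (3.12) or Cnsi IFNγ replicate 2 (2.32), so at this depth IDO2 was read from a handful of counts. IDO2 passed the filter in this line only through Cnsi IFNγ, with 15 summed counts against at most 9 in any other group. Its IFNγ difference is therefore not independent of the filter, and no rise is read from it.

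TDO2 (chr4:155854738-155920406, plus strand), the tryptophan dioxygenase typical of liver, rose with IFNγ in the line labelled 786-O. It stood at 17.7, 17.5 and 16.6 CPM in Cnsi and at 33.1, 30.7 and 34.3 CPM in Cnsi IFNγ, with no overlap. The change was 0.92 (log2, SE 0.079, adjusted p = 4.24e-10 by edgeR's quasi-likelihood test). Under the A498 label the levels were 2.75, 2.15 and 2.19 CPM in Cnsi and 1.68, 2.21 and 2.31 CPM in Cnsi IFNγ. These overlapped, and the difference of -0.20 (95% interval -0.54 to 0.14) did not pass (adjusted p = 0.309 by edgeR). The IFNγ effects of the lines differed by 1.11 (SE 0.19, adjusted p = 3.60e-06 by edgeR's quasi-likelihood test on all 24 libraries).

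**Figure D2:**
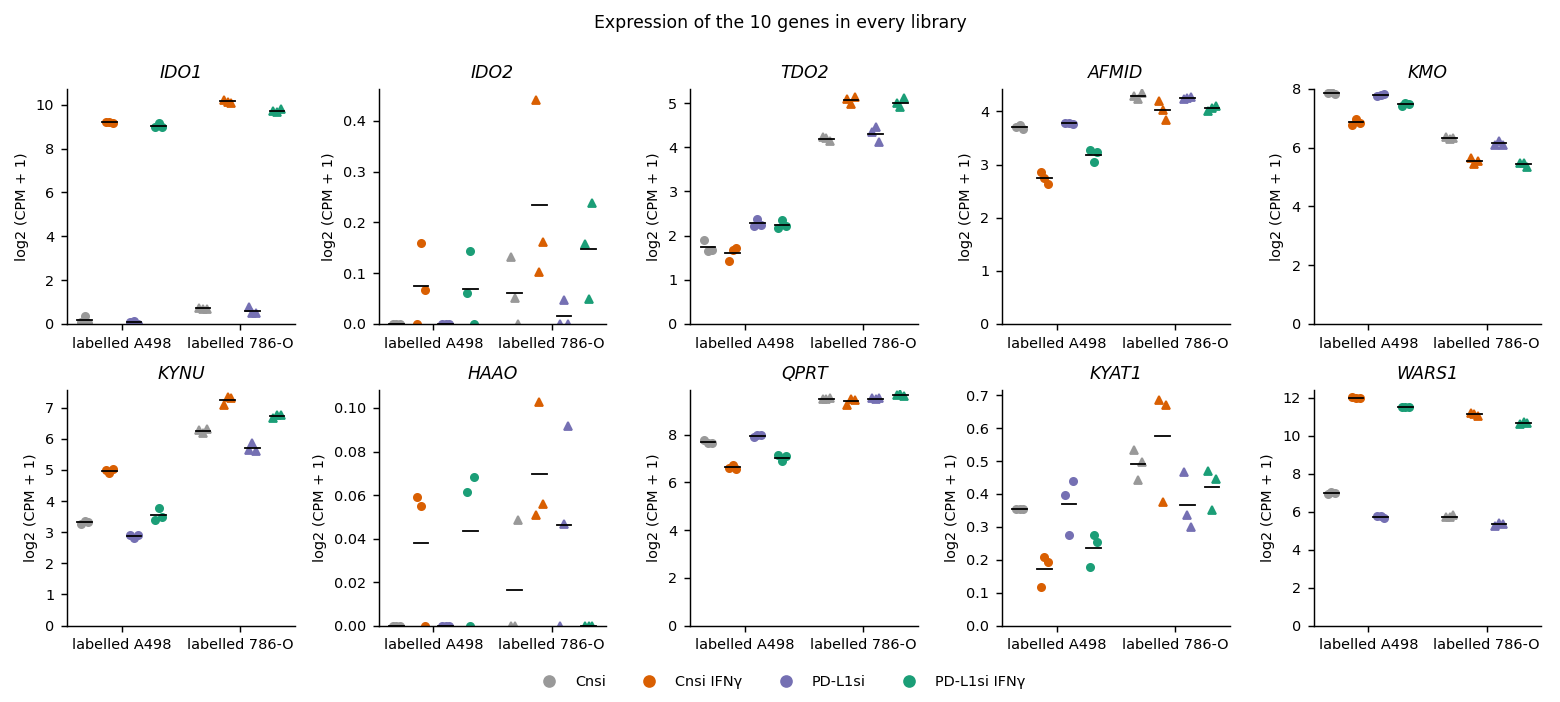
Log2 (CPM + 1) of the 10 genes in every library, with 4 groups of 3 libraries in each labelled line and a black bar at each group's mean; the y axes differ between genes. IDO1 and WARS1 split by IFNγ in both lines, KYNU in the line labelled A498 is highest in Cnsi IFNγ, and IDO2, HAAO and KYAT1 stay under 1 on this scale.

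The middle steps of the route changed in both directions. AFMID (chr17:78187358-78207702, plus strand), the formamidase that makes kynurenine, stood at 12.1, 12.4 and 11.8 CPM in Cnsi and at 6.29, 5.70 and 5.24 CPM in Cnsi IFNγ in the line labelled A498. All treated libraries were below all controls, with a change of -1.07 (SE 0.090, adjusted p = 8.23e-13 by edgeR). In the line labelled 786-O the levels were 18.6, 17.7 and 19.3 against 17.3, 15.2 and 13.4 CPM, a difference of -0.28 that passed on p (adjusted p = 0.00725 by edgeR) and not on size. The lines' effects differed by 0.79 (SE 0.12, adjusted p = 6.80e-07 by edgeR).

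KMO (chr1:241532134-241595642, plus strand), the monooxygenase that commits kynurenine to the NAD+ branch, fell with IFNγ in both lines. It stood at 232, 235 and 226 CPM in Cnsi and at 108, 126 and 114 CPM in Cnsi IFNγ in the line labelled A498. Among libraries labelled 786-O it stood at 81.5, 77.0 and 79.3 against 49.5, 42.0 and 45.9 CPM. No libraries overlapped in either line, and the changes were -0.996 (SE 0.046, adjusted p = 4.01e-20) and -0.79 (SE 0.060, adjusted p = 4.01e-11) by edgeR's quasi-likelihood test.

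However, 28.4% of KMO's exon bases lie opposite exons of OPN3, an opsin gene on the other strand. OPN3 changed by -1.14 and -1.01 in the same comparisons, and its log2 levels followed those of KMO with Pearson's r of 0.990 and 0.995 over the 12 libraries of each line. VIM-AS1, which lies opposite the abundant VIM, held 26.0 to 34.1% of VIM's counts, and the same may hold for other genes on opposite strands. The changes of KMO and OPN3 therefore cannot be told apart here.

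KYNU (chr2:142877657-143055833, plus strand), the kynureninase that acts after KMO or directly on kynurenine, rose with IFNγ in both lines. In cells labelled A498 it stood at 8.53, 9.19 and 9.09 CPM in Cnsi and at 30.7, 28.8 and 31.6 CPM in Cnsi IFNγ. For the libraries labelled 786-O it stood at 76.4, 71.5 and 79.0 against 136, 159 and 156 CPM. The groups were apart in both, by 1.76 (SE 0.079, adjusted p = 1.96e-20) and 0.99 (SE 0.065, adjusted p = 1.50e-11) by edgeR's quasi-likelihood test, and the effects differed by -0.78 between the lines (SE 0.11, adjusted p = 1.97e-07 by edgeR). Thus KYNU rose with IFNγ in both lines, where the counts of KMO, which cannot be told apart from those of OPN3, fell.

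The steps toward NAD+ were uneven. HAAO (chr2:42767089-42792593, minus strand), the dioxygenase between KYNU and QPRT, had 4 counts over the 12 libraries labelled A498 and 8 over those labelled 786-O, with at most 2 in any library, and no difference was detectable at this depth. QPRT (chr16:29663279-29698699, plus strand), which makes the NAD+ precursor from quinolinic acid, fell in the line labelled A498. It stood there at 216, 198 and 197 CPM in Cnsi and at 95.9, 104 and 94.3 CPM in Cnsi IFNγ, all treated libraries being lower (log2 change -1.05, SE 0.053, adjusted p = 8.88e-18 by edgeR). Under the 786-O label, at 717, 712 and 741 against 608, 724 and 698 CPM, the groups overlapped and the difference of -0.10 (95% interval -0.20 to 0.01) did not pass (adjusted p = 0.150 by edgeR). The lines differed by 0.95 in this effect (SE 0.080, adjusted p = 1.47e-12 by edgeR). A share of 1.03% of QPRT's exon bases is also annotated to SPN.

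KYAT1 (chr9:128832942-128882494, minus strand), which makes kynurenic acid, had between 2 and 17 counts in every library. It had 7, 7 and 7 counts in Cnsi and 2, 4 and 3 in Cnsi IFNγ in the line labelled A498, where the difference of -1.09 (SE 0.52) did not pass (adjusted p = 0.0664 by edgeR). In the line labelled 786-O, with 14, 10 and 12 against 17, 8 and 15 counts, the groups overlapped. Since 57.3% of its exon bases are shared with another gene on the same strand, its counts are uncertain.

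WARS1 (chr14:100333790-100376805, minus strand) draws on the same tryptophan for protein synthesis. Among libraries labelled A498 it stood at 121, 128 and 124 CPM in Cnsi and at 4218, 3985 and 4081 CPM in Cnsi IFNγ. In cells labelled 786-O it stood at 50.7, 52.1 and 54.9 against 2302, 2254 and 2130 CPM. It thus rose by 5.04 (SE 0.046, adjusted p = 1.40e-41) and 5.41 (SE 0.061, adjusted p = 1.71e-28) on the log2 scale by edgeR's quasi-likelihood test, a 32.9-fold and a 42.4-fold rise. The lines' effects differed by 0.36 (adjusted p = 2.26e-05 by edgeR), which is under the size asked for. WDR25, which overlaps WARS1 on the other strand, had between 0.310 and 12.6% of WARS1's counts in a library.

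In all, 6 of the 8 members tested passed with IFNγ in Cnsi cells labelled A498, 3 up (IDO1, KYNU, WARS1) and 3 down (AFMID, KMO, QPRT), where 36.8% of all genes tested were called, 18.2% up and 18.5% down. A call here takes an adjusted p under 0.05 and a log2 change over 0.5 in either direction. The KMO changes, here and below, cannot be told apart from those of OPN3. The members' median was -0.60, against -0.03 over all genes. In Cnsi cells labelled 786-O 5 of 9 passed, 4 up (IDO1, TDO2, KYNU, WARS1) and 1 down (KMO), where 18.5% of all genes were called, 11.1% up and 7.39% down, with a median of 0.92 against 0.00 (log2) over all genes. These 9 and their median include IDO2, which passed the filter only through Cnsi IFNγ. Of the 8 members tested for a difference between the lines 5 passed, where 28.4% of all genes were called, 15.1% higher and 13.2% lower. For IDO1 this difference of -1.27 (adjusted p = 0.0170 by edgeR) was lost without Cnsi replicate 1 (-1.02) or Cnsi replicate 3 (-0.85) labelled A498.

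IFNγ was also added to silenced cells, which asks whether the same genes respond with PD-L1si. CD274 itself still rose with IFNγ there, by 4.92 and 4.36 (log2) in the lines labelled A498 and 786-O. In PD-L1si IFNγ it lay above its level in Cnsi without IFNγ, which was 3.99 to 5.74 and 3.87 to 4.18 CPM. In PD-L1si cells labelled A498 5 of 8 members passed, 3 up and 2 down, against 33.5% of all genes, 17.6% up and 15.9% down. WARS1 stood at 53.3, 53.9 and 49.8 CPM without and at 2932, 2914 and 2857 CPM with IFNγ, a rise of 5.79 (SE 0.048, adjusted p = 9.06e-43 by edgeR). KYNU stood at 6.45, 6.06 and 6.59 against 9.38, 12.8 and 10.3 CPM, a rise of 0.75 (SE 0.099, adjusted p = 3.36e-08 by edgeR). KMO stood at 216, 223 and 225 against 171, 182 and 176 CPM, lower in all 3 libraries by -0.33, which did not reach the size asked for.

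AFMID fell by 0.64 and QPRT by 0.91 on the log2 scale in the same silenced cells (adjusted p = 3.87e-08 and 3.17e-16 by edgeR). TDO2, at 3.66, 4.21 and 3.74 against 3.53, 4.11 and 3.63 CPM, overlapped. In PD-L1si cells labelled 786-O 5 of 9 members passed, 4 up and 1 down, against 18.4% of all genes, 11% up and 7.45% down. These were IDO1 (10.72), WARS1 (5.37), KYNU (1.02) and TDO2 (0.73), which rose, and KMO (-0.73), which fell.

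**Figure D3:**
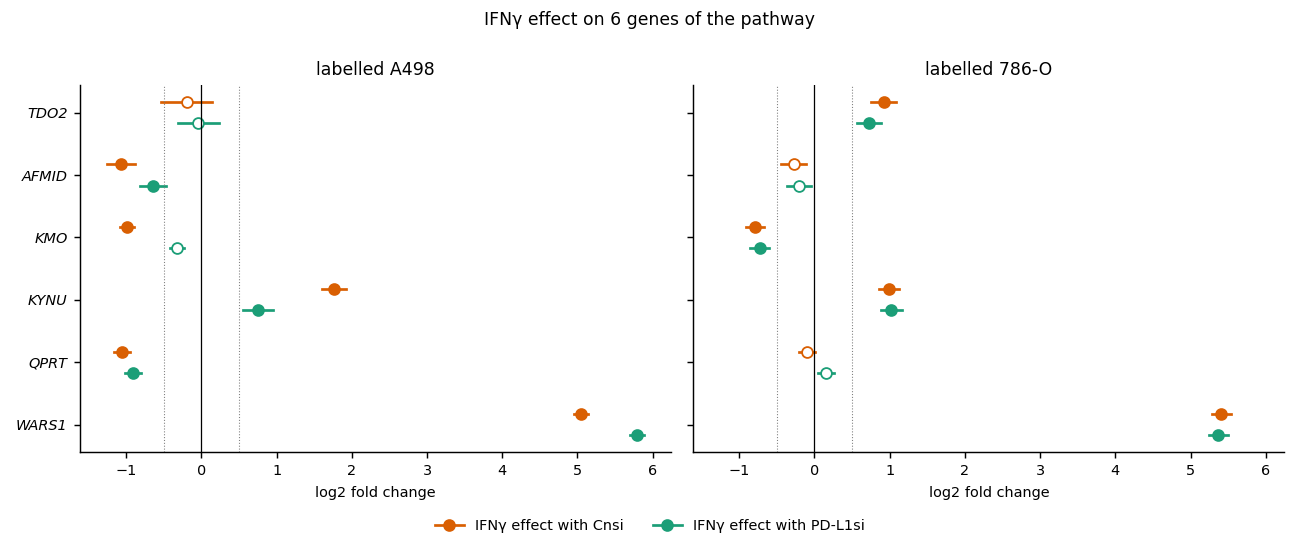
Log2 fold change with IFNγ (x axis) for 6 members in Cnsi cells (orange) and PD-L1si cells (green) of each labelled line, with 95% intervals of the fit; filled points passed the test and the size of 0.5 marked by dotted lines. The orange and green points of WARS1, KYNU, KMO and AFMID lie apart in the line labelled A498 and overlap in the line labelled 786-O.

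The change in the IFNγ effect with silencing, an interaction term, was tested in each line. For the libraries labelled A498 3 of 8 members passed, where 2.45% of all genes were called, 1.81% higher and 0.645% lower. The IFNγ effect on WARS1 was larger with PD-L1si by 0.75 (SE 0.058, adjusted p = 1.58e-11 by edgeR), and that on KYNU was smaller by a log2 difference of -1.01 (SE 0.13, adjusted p = 7.89e-07 by edgeR). The level of WARS1 was lower with PD-L1si at both settings, with log2 changes of -1.25 without IFNγ and -0.497 under it. The fall of KMO was weaker with PD-L1si by 0.67 (SE 0.064, adjusted p = 2.12e-09 by edgeR), and that of OPN3 by 0.68. The fall of AFMID was also weaker with PD-L1si, by 0.43 (SE 0.13, adjusted p = 0.0244 by edgeR), which is under the size asked for. For IDO1, the difference of 1.17 had a 95% interval of -0.39 to 2.73 and did not pass.

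Under the 786-O label 0 of 9 members passed this test, where 0.099% of all genes were called, 0.0377% higher and 0.0613% lower. At an unadjusted p under 0.05 there was 1 member, QPRT, and DESeq2 also called 0. The interval of the difference was -0.19 to 0.12 for WARS1, -0.16 to 0.22 for KYNU and -0.11 to 0.24 for KMO, each on the log2 scale. CD274 was lowered less under IFNγ in this line (log2 -0.94 against -2.81), and the part of this in the result was not tested.

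PD-L1 silencing itself was compared at both IFNγ settings, and these comparisons share libraries with those of IFNγ above. Without IFNγ in the line labelled A498, WARS1 fell from 121, 128 and 124 CPM in Cnsi to 53.3, 53.9 and 49.8 CPM in PD-L1si, with no overlap. The change was -1.25 (SE 0.043, adjusted p = 3.09e-22 by edgeR). TDO2 rose by 0.70 (SE 0.14, adjusted p = 1.52e-04 by edgeR), from at most 2.75 CPM in Cnsi to at least 3.66 CPM. These were 2 of 8 members tested, where 8.48% of all genes were called, 2.87% up and 5.6% down. KYNU was lower by -0.49 (adjusted p = 1.80e-04 by edgeR), just short of the size asked for, and IDO1 was near 0 in both groups.

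Under IFNγ in the line labelled A498 3 of 8 members passed, 2 up and 1 down, against 10.1% of all genes, 4.36% up and 5.75% down. KYNU fell from 30.7, 28.8 and 31.6 CPM in Cnsi IFNγ to 9.38, 12.8 and 10.3 CPM in PD-L1si IFNγ, the farthest of the members, by 1.49 on the log2 scale (SE 0.080, adjusted p = 4.31e-17 by edgeR). KMO rose by 0.60 (SE 0.046, adjusted p = 5.66e-13) and TDO2 by 0.86 (SE 0.16, adjusted p = 3.22e-05), both by edgeR's quasi-likelihood test. OPN3 rose by 0.58 beside KMO.

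WARS1 and AFMID lay at the edge of the size asked for under IFNγ in the line labelled A498, with -0.497 (adjusted p = 5.53e-13) and 0.4996 (adjusted p = 1.19e-04) by edgeR. The WARS1 value passed with DESeq2 or another scaling (-0.51 each). IDO1 stood at 592, 603 and 576 CPM in Cnsi IFNγ and at 513, 567 and 511 CPM in PD-L1si IFNγ. The silenced libraries were all lower, by a log2 difference of -0.15 (SE 0.047, adjusted p = 0.00986 by edgeR) that is under the size asked for. QPRT was higher with PD-L1si in this line, by 0.42 under IFNγ (adjusted p = 1.60e-07 by edgeR). Without IFNγ it was higher by 0.28 (adjusted p = 5.69e-05 by edgeR), and both are under that size.

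In the line labelled 786-O, KYNU was the 1 member of 9 that passed at either setting, and it fell. Of all genes, 2.81% were called without IFNγ, 1.19% up and 1.63% down, and 3.03% with it, 1.29% up and 1.74% down. Without IFNγ it stood at 76.4, 71.5 and 79.0 CPM in Cnsi and at 49.3, 56.7 and 48.0 CPM in PD-L1si, a change of -0.56 (SE 0.067, adjusted p = 3.35e-06 by edgeR). With IFNγ it stood at 136, 159 and 156 against 99.6, 106 and 107 CPM, a change of -0.53 (SE 0.064, adjusted p = 4.25e-06 by edgeR). This last call was lost on size without Cnsi IFNγ replicate 2 (-0.49) or PD-L1si IFNγ replicate 1 (-0.497).

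IDO1 and WARS1 were lower in every silenced library labelled 786-O under IFNγ, by amounts under the size asked for. IDO1 stood at 1202, 1135 and 1087 CPM in Cnsi IFNγ and at 846, 819 and 890 CPM in PD-L1si IFNγ (log2 difference -0.42, SE 0.052, adjusted p = 2.63e-06 by edgeR). WARS1 stood at 2302, 2254 and 2130 against 1582, 1676 and 1630 CPM (log2 difference -0.45, SE 0.050, adjusted p = 5.04e-07 by edgeR). QPRT went the other way, by 0.25 (SE 0.052, adjusted p = 0.00125 by edgeR), also under that size. Without IFNγ its difference was 0.009 (adjusted p = 0.945 by edgeR).

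**Figure D4:**
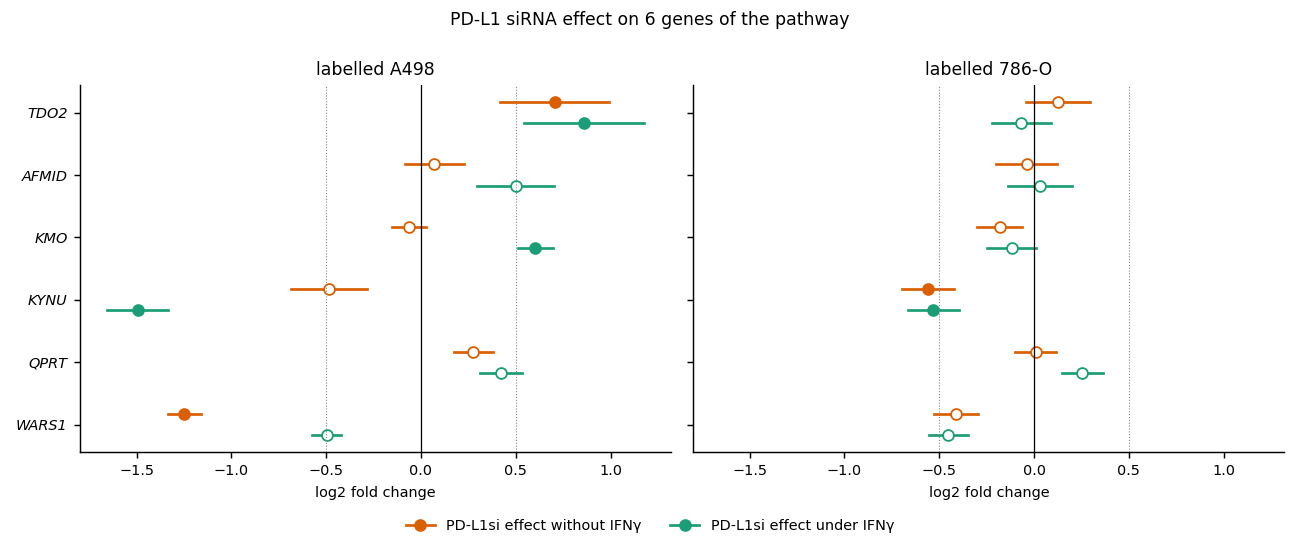
Log2 fold change with PD-L1si (x axis) for 6 members without IFNγ (orange) and under IFNγ (green) in each labelled line, with 95% intervals of the fit; filled points passed the test and the size of 0.5 marked by dotted lines. KYNU and WARS1 lie left of 0 in all 4 comparisons, and WARS1 in the line labelled A498 lies farther left without IFNγ than under it.

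The silencing effects under IFNγ differed between the lines for 3 of 8 members, against 5.6% of all genes, 2.96% higher and 2.64% lower. As differences of log2 changes (786-O minus A498 by label), these were 0.97 for KYNU (SE 0.11, adjusted p = 2.23e-08), -0.71 for KMO (SE 0.080, adjusted p = 1.45e-08) and -0.92 for TDO2 (SE 0.18, adjusted p = 1.75e-04) by edgeR's quasi-likelihood test. For WARS1 the difference was 0.06, with a 95% interval of -0.07 to 0.18. CD274 itself was lowered less in the line labelled 786-O, and the part of this in the 3 differences was not tested.

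Other aminoacyl-tRNA synthetases, which load other amino acids, and the mitochondrial WARS2 were listed beside WARS1. With IFNγ in Cnsi cells labelled A498, 7 of the 19 listed rose and 4 fell, where 18.2% and 18.5% of all genes did, with a median of 0.30 and a range of -0.92 to 1.34 (log2), so the WARS1 change of 5.04 lay outside the range. KARS1 rose by 1.34, AARS1 by 1.03 and YARS1 by 0.95, and QARS1 changed by -0.92. Among libraries labelled 786-O 10 of the 19 stand at 0 in every library and are taken as not measured, KARS1, AARS1 and YARS1 among them. Of the other 9, 3 rose, where 11.1% of all genes did, namely RARS1 (0.88), MARS1 (0.86) and EPRS1 (0.52), against 5.41 for WARS1.

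**Figure D5:**
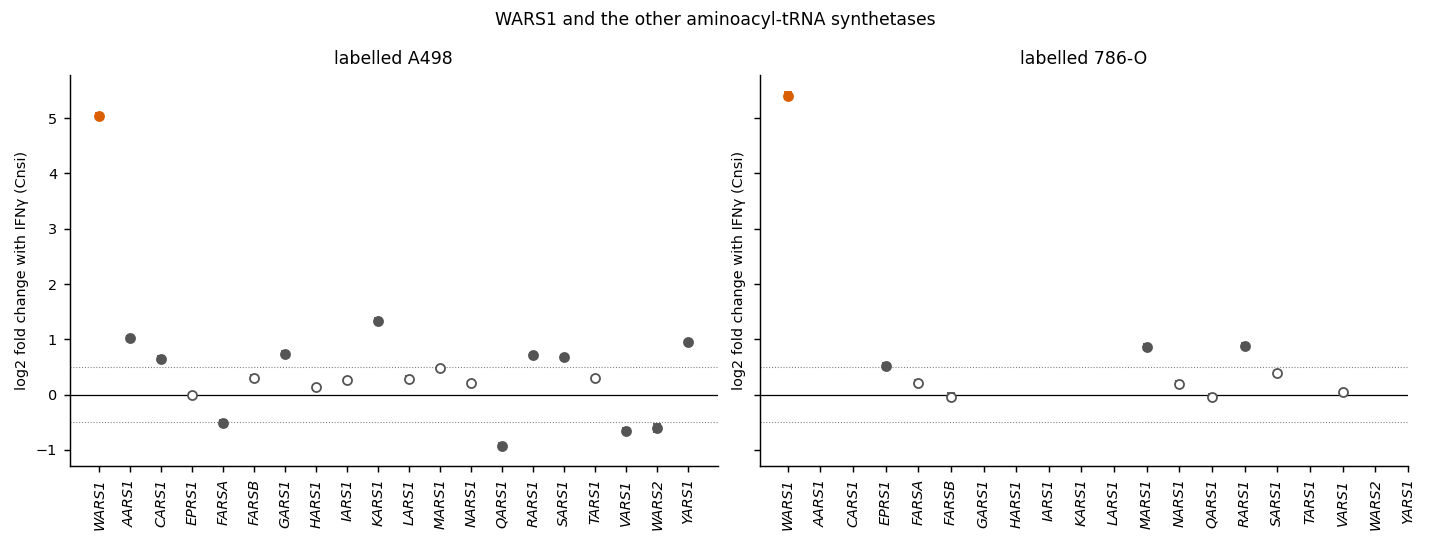
Log2 fold change with IFNγ in Cnsi cells (y axis, bars of 1 SE) for WARS1 (orange) and the 19 other synthetases (grey) in each labelled line; filled points passed the test and the size of 0.5 marked by dotted lines, and genes with no point were not tested. WARS1 lies above 5 in both lines and the others lie between -0.92 and 1.34.

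Other enzymes of tryptophan breakdown were compared with IFNγ in Cnsi cells, where 36.8% of all genes were called in the line labelled A498 and 18.5% in the line labelled 786-O. In cells labelled A498 3 of 11 tested rose and 5 fell, with a median of -0.38 (log2). IL4I1, an amino acid oxidase that acts on tryptophan, rose by 1.90 (SE 0.076), and AANAT, of melatonin synthesis, by 3.10 (SE 0.52). DDC, the decarboxylase of serotonin synthesis, changed by -3.00 (SE 0.50), ALDH8A1 by -2.27 (SE 0.73) and the monoamine oxidase MAOB by -2.26 (SE 0.10). The sizes for AANAT, DDC and ALDH8A1 are thus less certain. AANAT and MAOB were not tested in the line labelled 786-O. For the libraries labelled 786-O 2 of 8 rose and 2 fell, with IL4I1 at 2.90, KYAT3, another kynurenine aminotransferase, at 0.63, ACMSD, which draws the route away from QPRT, at -0.68 and DDC at -0.63.

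Of the 8 genes of NAD+ supply listed beside QPRT, 2 of 8 tested rose in the line labelled A498 and 1 of 6 in the line labelled 786-O, near the shares of all genes that rose, 18.2% and 11.1%. NAMPT, of the salvage route from nicotinamide, rose by 1.91 and 0.61, and NNMT, which methylates nicotinamide, rose by 0.97 in the former. NNMT was not tested in the line labelled 786-O. Among transporters of tryptophan and related amino acids, 1 of 7 tested rose and 2 fell in the line labelled A498 (18.2% and 18.5% of all genes), with SLC3A2 at 0.78, SLC7A8 at -2.09 and SLC16A10 at -2.51. Under the 786-O label 3 of 6 fell (7.39% of all genes), namely SLC16A10 (-1.39), SLC7A5 (-1.25), the large neutral amino acid carrier, and SLC7A11 (-0.83). SLC3A2 was not tested there.

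The aryl hydrocarbon receptor, which kynurenine can bind, and its targets were also listed. AHR rose by 0.69 in the line labelled A498, 1 of 6 tested beside 18.2% of all genes, and CYP1B1 fell by 0.83 on the log2 scale in the line labelled 786-O, 1 of 5 tested beside 7.39% of all genes. Of the IFNγ signaling genes, 4 of 6 tested rose in the line labelled A498, beside 18.2% of all genes, SOCS1 (5.68), IRF1 (4.62), JAK2 (3.07) and IFNGR1 (0.96). In the line labelled 786-O 2 of 3 rose, SOCS1 (5.00) and IRF1 (4.77), beside 11.1% of all genes, and 3 of the 6 (IFNGR1, IFNGR2 and JAK2) stand at 0 in every library and are taken as not measured. Without IFNγ, IRF1 was lower with PD-L1si in the line labelled A498 by -0.86 (adjusted p = 5.05e-17 by edgeR), beside the WARS1 change of -1.25 given above. The same comparison under the 786-O label gave 0.08 for IRF1 (adjusted p = 0.398 by edgeR) and -0.41 for WARS1 (adjusted p = 9.93e-06 by edgeR, under the size asked for).

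Likeness of pattern was measured by Pearson's r of log2 (CPM + 1) over the 12 libraries of each line among 12569 genes, as a description, since all these libraries share the IFNγ split. Nearest to IDO1 was GBP5, a guanylate-binding protein, among named genes, with r of 0.9997 and 0.9990, after ENSG00000237568 and ENSG00000254287, the latter of which lies opposite IDO1. Nearest to WARS1 were ENSG00000258666, which lies opposite WARS1, the immunoproteasome subunit PSMB9 (0.9992 and 0.9989) and GBP3 (0.9990 and 0.9988). Nearest to KYNU were the lysosomal protease CTSL (0.987 and 0.989), the copper transporter SLC31A2 (at least 0.972 in both) and the glycolytic enzyme ENO1 (0.967 and 0.979). For KMO they were OPN3, TMEM45A (0.989 and 0.981) and WEE1 (0.968 and 0.959), the first being its opposite-strand neighbor. By Spearman's rho, 0, 0, 0 and 1 of the 3 nearest genes of IDO1, WARS1, KYNU and KMO were kept.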

How the data were processed

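RNA-seq of 24 libraries was deposited by the authors as 1 table of raw counts per gene. Per the labels and the methods, reads were trimmed with Trimmomatic (0.36.6), aligned to GRCh38 with HISAT2 (2.1.0) and counted with featureCounts (1.6.3) under a stranded setting after a TruSeq Stranded preparation. The columns were matched to libraries by their sample description. Of 39321 gene IDs, 39148 matched GENCODE 44, which gave positions, exon lengths and overlaps, so CPM per kb depends on that release.

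Per line, edgeR 4.0.16 (R 4.3.3) fitted 1 mean per group to the 12 libraries with TMM scaling, a robust quasi-likelihood fit and Benjamini-Hochberg adjustment over the genes with at least 10 counts summed in a group (20916 genes by the A498 label and 21209 by the 786-O label). Differences between lines used all 24 libraries and 17999 genes. SEs were obtained from the F statistic. The edgeR steps were tested on simulated data. The members, lists and comparisons were chosen with earlier results of these data known. Some genes of the lists are not reported here and entered no list count. Named genes are the 10 members, CD274, up to 4 genes past the threshold with IFNγ per list and line (a gene so named in one line may be given in both), IFNGR2 as a row at 0, and the 3 genes most like each of IDO1, WARS1, KYNU and KMO. OPN3, WDR25, SPN and VIM were named for their overlap or as a check, after its extent was seen, and IRF1 with PD-L1si after its value was seen.

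Replicate numbers did not pair the libraries: deviations of same-numbered libraries correlated at a mean of 0.0523 (-0.111 to 0.260, 18 pairs) and 0.00509 (-0.407 to 0.248, 18 pairs) in the lines labelled A498 and 786-O. Replicate libraries differed by more than counting noise in all 24 pairs (chi-square per degree of freedom 1.63 to 24.3). Alternatives were DESeq2 1.42.0, another scaling, other filters, the adjusted p alone, a newer edgeR fit, a replicate block, only the groups compared, protein-coding genes, and each library left out.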

Additional observations from a re-analysis of the deposited data

Results flagged for a closer look

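Within the line labelled A498, the IFNγ effect differed between PD-L1si and Cnsi cells for KYNU (-1.01, adjusted p = 7.89e-07), KMO (0.67, adjusted p = 2.12e-09) and WARS1 (0.75, adjusted p = 1.58e-11), each a difference of log2 changes by edgeR's quasi-likelihood test. The KMO value cannot be told apart from that of OPN3. WARS1 itself was lower with PD-L1si at both settings, with log2 changes of -1.25 without IFNγ and -0.497 under it. Between the lines (786-O minus A498 by label), the IFNγ effect in Cnsi cells differed for QPRT (0.95, adjusted p = 1.47e-12), KYNU (-0.78, adjusted p = 1.97e-07), IDO1 (-1.27, adjusted p = 0.0170), TDO2 (1.11, adjusted p = 3.60e-06) and AFMID (0.79, adjusted p = 6.80e-07) by edgeR. The effect of PD-L1si under IFNγ differed between the lines for KYNU (0.97, adjusted p = 2.23e-08), KMO (-0.71, adjusted p = 1.45e-08) and TDO2 (-0.92, adjusted p = 1.75e-04) by edgeR. The IDO1 difference rests on 10 counts in the Cnsi libraries labelled A498, and line and instrument cannot be told apart.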

How the results depend on the processing

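Over the members' results and alternatives, 1618 kept their direction and side of the threshold, 40 gained a call, 4 lost one and 17 changed sign, each with a library left out and none of a called value. With single libraries left out, these ranged (log2) from -0.10 to 0.016 for TDO2 with IFNγ in PD-L1si labelled A498, from -0.036 to 0.28 for KYAT1 with PD-L1si without IFNγ labelled A498, from -0.057 to 0.13 for AFMID with PD-L1si under IFNγ and from -0.00324 to 0.027 for QPRT with PD-L1si without IFNγ labelled 786-O. The interaction labelled 786-O ranged from -0.24 to 0.24 for IDO1, -0.25 to 2.74 for IDO2, -0.019 to 0.17 for AFMID, -0.042 to 0.10 for KYNU, -0.34 to 0.15 for KYAT1 and -0.11 to 4.83e-05 for WARS1. With the adjusted p alone, 7 members passed for PD-L1si under IFNγ and 4 without it in the line labelled A498, 4 and 3 in the line labelled 786-O, and 5 for the line difference in PD-L1si under IFNγ. With single libraries left out, the count for PD-L1si under IFNγ in the line labelled 786-O ranged from 0 to 1. The IDO1 line difference with IFNγ ranged from -2.37 to -0.85. A replicate block changed no count of calls (6 members with IFNγ in Cnsi labelled A498 and 5 in Cnsi labelled 786-O). AFMID under IFNγ labelled A498 gained its call with a stricter filter or with only the groups compared (0.50 each). Without TMM, 23 of 80 mean levels moved by over 1 SD, by at most 9.11%. The causes were not tested. IDO2, HAAO and KYAT1 had at most 17 counts in any library, which limits what can be read from them. For KYAT1, 57.3% of exon bases are also shared with another gene on the same strand.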
